A study of Homo sapiens with 20 samples.

Results

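The comparison described here is the later phase of the response to a lower dose of doxycycline, 4 arrays of cells given 3 ng for 24 h against 4 arrays of cells given 3 ng for 12 h, and these 8 arrays were taken by their titles from 20 arrays in all. The cells were B5/589, an immortalized human mammary epithelial line carrying an inducible p53 transgene, grown with serum and epidermal growth factor. The other arrays, 4 in each group, held cells given 5 ng for 24 h, cells given 5 ng for 12 h, and cells given no doxycycline (0 ng), collected at 24 h. Every group carried the transgene, doses are labelled in ng with no volume, and the promoter and clone behind the transgene are not given in the labels. Separate cultures behind the 4 arrays of a group are not stated in the labels, and p-values therefore cover only the spread among these samples, part of which may be technical. No uninduced cells at 12 h were analysed here, so the late change combines 12 further hours of induction with 12 further hours in culture, and these cannot be told apart.

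The p53 protein is a transcription factor that raises genes of cell cycle arrest, DNA repair, metabolism and apoptosis. One of its targets, CDKN1A, encodes the kinase inhibitor p21, which keeps the RB family proteins active. Some members of that family form the DREAM complex with E2F proteins and the MuvB core. It represses cell cycle genes through short promoter elements. These are the cell cycle genes homology region (CHR) in G2 and M phase genes and E2F sites in S phase genes. Many G2 and M phase promoters also carry CCAAT boxes, bound by the activator NF-Y. Targets of p53 can follow different courses after induction, some climbing for many hours and others peaking early.

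The genes lower at 24 h than at 12 h were led by genes of mitosis and by histone genes, and promoters of 4 of the steepest are shown because they hold the letters of both the CHR and the CCAAT box. The promoter of H3C2, another steep faller, also holds both (1 TTTGAA and 2 CCAAT) and is not shown. That of CENPE holds neither, those of H2BC14 and H3C7 no TTTGAA, and those of NDC80 and C18orf54 no CCAAT. No promoter was matched for HMGB2 and TTK. The sequences are RefSeq promoters of assembly GRCh38.p14, 250 bases before to 50 bases after the start of the gene, printed 5′ to 3′ on the strand of the gene. Capitals mark TTTGAA (the core of the CHR) and CCAAT, in either orientation, so that TTCAAA and ATTGG are the same motifs read from the other strand. The regions are chr2:168890381-168890680 on the minus strand for SPC25, chr1:200620702-200621001 on the minus strand for KIF14, chr10:60778081-60778380 on the plus strand for CDK1 and chr1:197146620-197146919 on the minus strand for ASPM.
SPC25: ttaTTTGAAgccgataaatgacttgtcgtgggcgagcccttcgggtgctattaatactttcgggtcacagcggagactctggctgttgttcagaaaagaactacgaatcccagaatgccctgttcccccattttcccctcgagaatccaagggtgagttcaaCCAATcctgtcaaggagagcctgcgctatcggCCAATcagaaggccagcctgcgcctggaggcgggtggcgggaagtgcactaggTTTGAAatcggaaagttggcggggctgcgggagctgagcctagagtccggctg
KIF14: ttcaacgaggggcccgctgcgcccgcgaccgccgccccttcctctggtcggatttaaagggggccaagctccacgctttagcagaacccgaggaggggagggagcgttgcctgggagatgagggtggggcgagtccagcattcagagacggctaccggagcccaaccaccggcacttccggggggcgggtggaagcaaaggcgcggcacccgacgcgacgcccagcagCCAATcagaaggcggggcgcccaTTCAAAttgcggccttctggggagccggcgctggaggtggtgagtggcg
CDK1: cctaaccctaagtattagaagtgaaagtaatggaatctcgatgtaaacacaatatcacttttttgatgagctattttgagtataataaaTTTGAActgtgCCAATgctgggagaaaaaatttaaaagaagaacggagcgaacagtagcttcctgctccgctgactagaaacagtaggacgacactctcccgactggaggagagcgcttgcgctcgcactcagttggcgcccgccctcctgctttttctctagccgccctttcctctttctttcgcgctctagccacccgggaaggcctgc
ASPM: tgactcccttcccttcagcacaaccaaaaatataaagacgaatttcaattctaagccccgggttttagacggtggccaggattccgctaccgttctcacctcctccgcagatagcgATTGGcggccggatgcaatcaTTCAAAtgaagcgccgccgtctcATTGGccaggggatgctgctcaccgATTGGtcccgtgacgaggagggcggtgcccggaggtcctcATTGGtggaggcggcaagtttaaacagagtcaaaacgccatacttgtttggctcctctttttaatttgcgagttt

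TTTGAA was found in 67.9% of the 28 promoters matched among 34 G2 and M phase genes, and in 15.2% of all 35116 promoters of this length. CCAAT was found in 71.4% of these 28 promoters, against 34.6% of all promoters, and both motifs were found in 53.6%, against 5.90%. Among 30 matched promoters of 33 S phase genes, TTTGAA was in 3.33% and CCAAT in 60.0%. Over all genes called lower at 24 h, described next, 587 of 736 had a promoter, and 26.1% of these held TTTGAA and 55.2% held CCAAT, against 11.9% and 36.3% of the 14239 promoters of genes tested. Among 12 promoters matched for the 13 genes called higher, TTTGAA was in 25.0% and CCAAT in 66.7%, and the difference from the falling genes was not tested. The 2 motifs can share 1 letter where they abut, and a match is a description of the letters, not of binding.

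The values are log2 signals as deposited, so a difference of 1 is a 2-fold difference. Arrays differed in brightness. Array medians were 4.74, 5.01, 4.89 and 4.75 at 3 ng 24 h, against 4.92, 5.54, 4.77 and 5.38 at 3 ng 12 h, where replicates 2 and 4 stood above the other 2. The median late change over 18417 genes was accordingly -0.23 as deposited and 0.08 after quantile normalization between arrays, and each result is read on both scales. In what follows a gene rose or fell only if limma's moderated test gave a Benjamini-Hochberg adjusted p under 0.05 in the same direction on both scales, and values are on the deposited scale unless said otherwise. Because 2 of the 4 arrays at 12 h were bright, counts are also given without those 2, an alternative chosen after seeing the data. Without them the median change of all genes was 0.05 as deposited. Markers of mammary basal cells, 11 of 12 of them above the median gene level of 5.74, averaged 9.13 to 9.40 per array at 24 h and 9.05 to 9.48 at 12 h. Luminal markers, 8 of 15 above that level, averaged 6.50 to 6.75 at 24 h and 6.43 to 7.07 at 12 h. Immune, endothelial and fibroblast markers averaged 3.54 to 3.73 at 24 h and 3.48 to 4.17 at 12 h, with 3 of 16 above that level.

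Among genes called on both scales the steepest late changes were falls, led by genes of cell division. On both scales 736 genes fell, which is 4.0% of the genes tested, and 13 rose, which is 0.0706%. As deposited the counts were 803 lower (4.36%) and 13 higher (0.0706%), and after quantile normalization 1116 lower (6.06%) and 1827 higher (9.92%), so the number of late rises, and whether falls or rises were more numerous, depended on how the arrays were scaled. Of the 736 falls, 374 were at least 2-fold as deposited, and 265 of those were at least 2-fold on both scales. Of the 13 rises, 1 was at least 2-fold as deposited. The arrays of the 2 times did not overlap on either scale for 1039 genes lower at 24 h (5.64%) and 37 genes higher (0.201%). Without the 2 bright arrays 281 genes fell and 32 rose, and on the quantile scale alone 730 were lower and 908 higher. All 281 were among the 736, and 12 of the 13 rises were called again. With any 1 array left out, 461 to 962 genes fell and 5 to 15 rose, with the fewest falls without replicate 2 of 3 ng 12 h and the fewest rises without replicate 1 or replicate 3 of 3 ng 24 h.

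All 34 measured genes of the G2 and M phase list fell, from BIRC5 at -1.31 to CDK1 at -2.48, with a median of -2.0 as deposited and -1.79 after quantile normalization. All 34 also fell without the 2 bright arrays, with a median of -1.66. CDK1, which encodes the kinase of mitotic entry, had log2 signals of 6.20, 5.96, 5.71 and 5.90 at 3 ng 24 h, against 8.05, 9.08, 7.96 and 8.60 at 3 ng 12 h and 8.82, 8.59, 8.21 and 9.17 at 0 ng. The 4 arrays at 24 h all lay below the lowest array at 12 h, while the arrays at 12 h overlapped those of uninduced cells. The late change of CDK1 was -2.48 ± 0.24 (SE, n = 4 each), a 5.58-fold lower signal, with a limma adjusted p of 2.88e-06. In bulk RNA of this kind, fewer cells in a phase of the cycle and less RNA per cell cannot be told apart.

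SPC25, a subunit of the NDC80 complex that ties kinetochores to spindle microtubules, had the largest late fall of any gene called. Its signals were 4.57, 5.06, 4.98 and 4.91 at 3 ng 24 h, against 6.83, 8.17, 7.18 and 7.51 at 3 ng 12 h and 7.93, 7.72, 7.73 and 8.23 at 0 ng. The groups at the 2 times did not overlap, and the change was -2.54 ± 0.24 (SE, n = 4 each), with a limma adjusted p of 2.88e-06. NDC80 itself, the kinetochore protein that names this complex, fell by 2.37. Other steep falls were those of KIF14, a kinesin of cytokinesis (-2.52), ASPM, a spindle pole protein (-2.41), CENPE, a kinetochore kinesin (-2.37), and TTK, a spindle checkpoint kinase (-2.33). HMGB2, a chromatin protein abundant in dividing cells, fell by 2.45, and the open reading frame C18orf54 fell by 2.41. CCNB1, which encodes the cyclin that activates CDK1 in mitosis, had 9.17, 9.23, 9.06 and 8.82 at 3 ng 24 h, against 10.37, 11.26, 10.49 and 10.76 at 3 ng 12 h. Its change of -1.65 ± 0.20 (SE, n = 4 each; limma adjusted p = 1.52e-05) was among the smaller ones of the list.

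Genes of S phase fell less steeply. Of 33 measured, 29 fell, with a median of -1.24 as deposited and -1.01 after quantile normalization. CLSPN, a mediator of the replication checkpoint, had 6.05, 6.18, 5.56 and 6.05 at 3 ng 24 h, against 7.29, 8.69, 7.37 and 7.91 at 3 ng 12 h. Its arrays did not overlap, and its change was -1.85 ± 0.27 (SE, n = 4 each; limma adjusted p = 0.000113). EXO1, an exonuclease of mismatch repair, fell by 1.83, POLE2, a subunit of DNA polymerase epsilon, by 1.77, and CDC45, part of the replicative helicase, by 1.69. The 6 subunits MCM2 to MCM7 of that helicase changed by -1.08 to -1.24. The 4 genes that did not pass were CCNE2 (-0.84), E2F1 (-0.67), SLBP (-0.52) and CCNE1 (-0.40), of which the cyclins E and E2F1 act at the entry to S phase and SLBP binds histone mRNA. Without the 2 bright arrays 20 of the 33 fell, with a median of -0.92.

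Replication-dependent histone genes, which are transcribed during S phase to package new DNA, fell in 33 of 40 cases, with a median of -1.60 as deposited and -1.31 after quantile normalization. H2BC14, a gene for histone H2B, had 8.10, 8.0, 7.28 and 7.84 at 3 ng 24 h, against 10.05, 10.87, 10.10 and 10.24 at 3 ng 12 h and 11.08, 11.38, 11.23 and 11.66 at 0 ng. The 3 groups did not overlap, and the late change was -2.51 ± 0.24 (SE, n = 4 each; limma adjusted p = 2.88e-06). The histone H3 genes H3C7 and H3C2 each fell by 2.35, and H2BC3 fell by 2.28. Histone genes are near copies of one another, and probes may not separate them fully, so single members are less certain than the group. Of the 40, 23 fell without the 2 bright arrays, with a median of -1.29.

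The 3 cell cycle lists had different medians at 12 h, relative to uninduced cells at 24 h, a difference that was not tested. In that earlier comparison, which shares the arrays of 3 ng 12 h with the late change and differs in culture time, 21 of 33 S phase genes, 13 of 40 histone genes and 1 of 34 G2 and M phase genes were lower at 3 ng 12 h on both scales, against 1.21% of all genes. The medians were -0.90 for S phase, -0.81 for histones and -0.59 for G2 and M phase. By 24 h the medians relative to 0 ng were -2.14, -2.50 and -2.59 for the same 3 lists. Of the 736 late falls, 606 had no call at 12 h, 89 were already lower than at 0 ng and 41 were higher. Over all 18417 genes, 222 were lower and 289 higher in that earlier comparison.

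**Figure D1:**
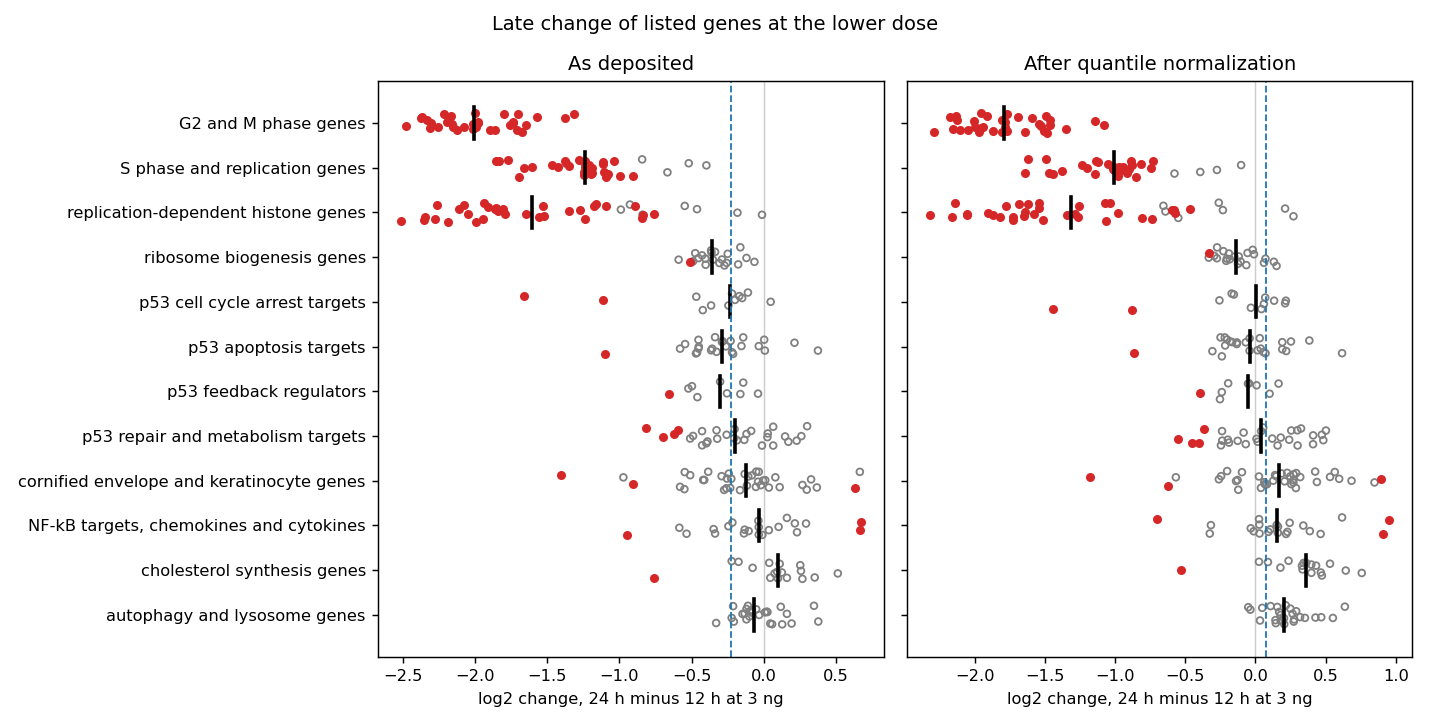
Late change at 3 ng (24 h minus 12 h, log2, horizontal axes) of each measured gene in 12 gene lists, as deposited on the left and after quantile normalization on the right, with 1 point per gene, filled where the gene was called on both scales, a black bar at the median of each list and a dashed line at the median of all genes. The lists of histone, S phase, and G2 and M phase genes lie far left of 0, with medians of -1.60, -1.24 and -2.0 as deposited, and the p53 target lists lie near the dashed lines.

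In most lists outside the cell cycle few members were called on both scales, beside the 4.0% of all genes that fell, and a count of 1 in 17 to 27 genes is near that share. Of 22 ribosome biogenesis genes 1 fell, FBL, the methyltransferase fibrillarin, at -0.51. Of 13 genes for ligands and receptors of the EGF family 2 fell, NRG1, a ligand of ERBB receptors, and LRIG1, an inhibitor of these receptors. NRG1 had 6.06, 6.19, 5.92 and 5.83 at 3 ng 24 h, against 7.26, 8.08, 7.16 and 7.52 at 3 ng 12 h, with no overlap and a change of -1.50 ± 0.20 (SE, n = 4 each; limma adjusted p = 3.17e-05). LRIG1 changed by -0.69. In the list of the integrated stress response 2 of 16 genes fell, SLC7A11, the cystine transporter, at -1.36, and ASNS, asparagine synthetase, at -0.93. SLC7A11 was also the 1 of 19 metallothionein and oxidative stress genes that fell.

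Among adhesion and matrix genes the counts were also low. Of 23 extracellular matrix and TGF-beta target genes, 3 fell. TNC, which encodes the matrix protein tenascin C, had 6.95, 6.73, 6.75 and 6.73 at 3 ng 24 h, against 7.52, 8.14, 7.73 and 8.19 at 3 ng 12 h, with a change of -1.10 ± 0.18 (SE, n = 4 each; limma adjusted p = 0.0003). The collagen genes COL7A1 and COL4A1 changed by -0.64 and -0.59. SNAI2, a transcription factor of mammary basal cells, fell by 0.67 and was the 1 of 27 genes called in the integrin and junction list. The Notch ligand gene JAG1 and the receptor gene NOTCH1 fell by 0.70 and 0.66, the 2 of 19 Notch and Wnt genes called. With the 2 bright arrays left out, TNC, NRG1 and SLC7A11 remained called, at -0.84, -1.21 and -1.21, and FBL, LRIG1, ASNS, COL7A1, COL4A1, SNAI2, JAG1 and NOTCH1 did not, at -0.31, -0.42, -0.75, -0.43, -0.37, -0.44, -0.61 and -0.54 as deposited. On the quantile scale the last 8 were lower in that fit too, except COL7A1 and COL4A1 (limma adjusted p = 0.0522 and 0.0567). FBL, LRIG1, COL7A1 and COL4A1 lost the call too without any 1 of replicates 2 and 4 at 12 h and replicate 4 at 24 h, at -0.39 to -0.65.

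In 5 further lists 1 or 2 members fell. These were FOSL1 and SRF, transcription factors of the immediate early response (-0.55 and -0.54, of 23), EBP, a sterol isomerase of cholesterol synthesis (-0.76, of 17), PFKFB4, a regulator of glycolysis (-0.91, of 23), NR1D2, a clock repressor (-0.59, of 17), and MMP3, a matrix protease (-0.94, of 22 genes in the NF-kB list). As deposited none of these 6 was called without the 2 bright arrays, at -0.41 for FOSL1, -0.38 for SRF, -0.48 for EBP, -0.67 for PFKFB4, -0.32 for NR1D2 and -0.64 for MMP3. On the quantile scale all but MMP3 were still lower in that fit, at -0.34 to -0.70. FOSL1, SRF, NR1D2 and MMP3 also lost the call without either of replicates 2 and 4 at 12 h or without replicate 4 at 24 h, at -0.45 to -1.01. The NF-kB list also held 2 genes that rose on both scales, IL6 and CCL3, 2 of 22 against 0.0706% of all genes. In the lists of MAPK feedback (17 genes), interferon-stimulated (21), autophagy and lysosome (26), basal (12), luminal (15) and immune, endothelial and fibroblast genes (16), limma called 0 genes on both scales. After quantile normalization alone 12 of 17 cholesterol synthesis genes, 10 of 26 autophagy genes and 9 of 23 glycolysis genes were higher at 24 h, against 9.92% of all genes, and as deposited 0 of each were. By the same reading 6 of 15 luminal, 7 of 22 NF-kB, 9 of 29 p53 repair and metabolism, 5 of 16 integrated stress response, 5 of 17 MAPK feedback and 7 of 38 cornified envelope genes were higher on the quantile scale. So were 3 of 12 basal, 3 of 12 heat shock, 3 of 13 EGF family, 6 of 27 integrin and junction and 4 of 23 matrix genes. Of 21 interferon-stimulated and 16 immune, endothelial and fibroblast genes, 0 were.

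The 13 late rises were small beside the falls. As deposited they divide into genes already raised at 12 h and genes then near the uninduced level. CRYAB, a small heat shock protein that shields other proteins from aggregation, had 8.73, 8.55, 8.87 and 8.54 at 3 ng 24 h, against 7.08, 7.60, 7.34 and 8.23 at 3 ng 12 h and 3.26, 3.52, 3.65 and 4.64 at 0 ng. The 3 groups did not overlap. Its late change was 1.11 ± 0.26 (SE, n = 4 each; limma adjusted p = 0.0116), 2.16-fold, on top of 3.79 at 12 h over 0 ng. CLCA2, a membrane protein and known p53 target of epithelial cells, had 9.72, 9.58, 9.54 and 9.31 at 3 ng 24 h, against 8.72, 8.84, 8.45 and 9.12 at 3 ng 12 h. Its arrays did not overlap, and it rose by 0.76 ± 0.17 (SE, n = 4 each; limma adjusted p = 0.00741), after 2.47 at 12 h.

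TM7SF2, a sterol reductase, rose by 0.70 and LCE1F, a protein of the cornified envelope of skin, by 0.63, after 0.98 and 1.56 at 12 h over 0 ng. PLTP, a phospholipid transfer protein, rose by 0.57 and the chemokine gene CCL3 by 0.67, after 1.97 and 0.87 at 12 h. CCL3 had 7.94, 7.26, 7.88 and 7.42 at 3 ng 24 h, against 6.55, 6.94, 7.03 and 7.32 at 3 ng 12 h. It was the 1 of the 13 rises whose arrays overlapped between the times as deposited. LCE1F was the only riser among 38 genes of the cornified envelope and keratinocyte differentiation, in which SPRR2A, a cornified envelope protein, fell by 1.41 and ZNF750, a transcription factor of that program, by 0.91. ZNF750 just missed the threshold without the 2 bright arrays (limma adjusted p = 0.0519). CRYAB was the only riser among 12 heat shock genes.

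The other 7 risers lay between -0.39 and 0.06 of the uninduced level at 12 h as deposited. IL6, an inflammatory cytokine, had 9.28, 9.30, 9.21 and 8.90 at 3 ng 24 h, against 8.36, 8.78, 8.22 and 8.65 at 3 ng 12 h and 8.63, 8.14, 8.32 and 8.71 at 0 ng. As deposited the arrays at 12 h overlapped those at 0 ng, and those at 24 h lay above both. On the quantile scale IL6 had 8.38 to 8.57 at 3 ng 12 h, above the 7.99 to 8.31 at 0 ng. That difference was 0.28 (limma adjusted p = 0.0227), so on that scale IL6 was already raised at 12 h. IL6 rose by 0.67 ± 0.15 (SE, n = 4 each; limma adjusted p = 0.0115) from 12 h to 24 h. MIR22HG, the host transcript of miR-22, rose by 0.68 and had 7.52, 7.57, 7.40 and 7.14 at 3 ng 24 h, against 6.35, 7.03, 6.48 and 7.06 at 3 ng 12 h. CCDC71L rose by 0.65, TMEM139, a membrane protein, by 0.62, PLOD2, a lysyl hydroxylase of collagen, by 0.58, SLC35D2, a nucleotide sugar transporter, by 0.56, and POLD4, a small subunit of DNA polymerase delta, by 0.48. CCDC71L, PLOD2, SLC35D2, POLD4 and TMEM139 differed from the uninduced mean by -0.39, -0.20, -0.27, -0.15 and -0.01 at 12 h.

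**Figure D2:**
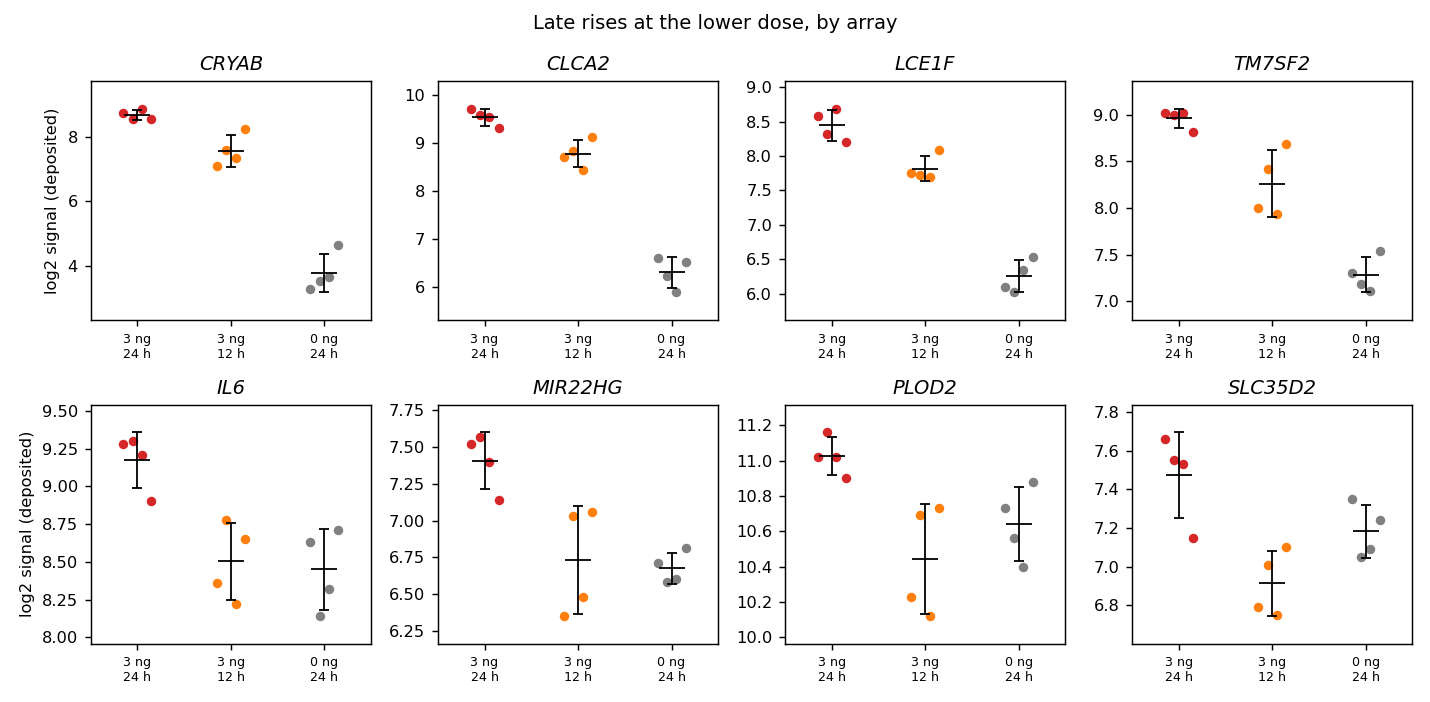
Deposited log2 signal (vertical axis) of 8 late risers on each array at 3 ng 24 h, 3 ng 12 h and 0 ng 24 h, with 1 point per array and a bar at the mean ± SD of 4 arrays. In the upper row CRYAB, CLCA2, LCE1F and TM7SF2 were above 0 ng at both times, and in the lower row IL6, MIR22HG, PLOD2 and SLC35D2 overlapped 0 ng or lay below it at 12 h.

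The calls of CRYAB, CLCA2, TM7SF2 and IL6 held when any 1 of the 8 arrays was left out. LCE1F lost its call without replicate 3 of 3 ng 24 h, at 0.55. The other 8 lost theirs without at least 3 of the 8 arrays, in each case without replicate 1 or without replicate 3 of 3 ng 24 h, with values of 0.42 to 0.68 in those fits. Fitted on the 8 arrays alone, with fewer residual degrees of freedom, CRYAB and CLCA2 were the 2 of the 13 that were called. Without the 2 bright arrays CRYAB rose by 1.46, CLCA2 by 0.95 and IL6 by 0.88, and PLTP was the 1 riser that lost its call, at 0.61 (limma adjusted p = 0.106).

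Most direct p53 targets, grouped by function in 4 lists, had no late call on both scales. The falls below stand beside 4.0% of all genes. Of 12 cell cycle arrest targets 2 fell, GTSE1 and E2F7, of which GTSE1 is a G2 and S phase protein that restrains p53 and E2F7 a repressor of E2F targets. Of 25 apoptosis targets 1 fell, APAF1. Of 9 feedback regulators 1 fell, WRAP53, which encodes a protein of telomerase assembly (-0.66), which was not called as deposited without the 2 bright arrays (-0.44, limma adjusted p = 0.227). Of 29 repair and metabolism targets 4 fell, FANCC, SESN1, PANK1 and POLH, and as deposited none was called without those 2 arrays (-0.46, -0.45, -0.33 and -0.38). WRAP53, SESN1, PANK1 and POLH were still lower on the quantile scale in that fit, and FANCC was not. No member of these 4 lists rose on both scales, while on the quantile scale alone 9 of the 29 repair and metabolism targets and 3 of the 25 apoptosis targets were higher, against 9.92% of all genes. FANCC lost its call too without either of replicates 2 and 4 at 12 h and without any 1 array at 24 h, at -0.61 to -0.87. The medians of the 4 lists were -0.23, -0.29, -0.30 and -0.20 as deposited and 0.01, -0.04, -0.05 and 0.04 after quantile normalization, close to the medians of all genes.

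CDKN1A had 9.43, 9.39, 9.42 and 9.10 at 3 ng 24 h, against 9.39, 9.82, 9.41 and 9.70 at 3 ng 12 h and 8.58, 8.47, 8.43 and 8.99 at 0 ng. The 2 times overlapped and both lay above uninduced cells, and the late change was -0.24 ± 0.14 (SE, n = 4 each; limma adjusted p = 0.372) as deposited and -0.03 after quantile normalization. MDM2, the ubiquitin ligase that degrades p53, had 12.35, 12.29, 12.30 and 12.13 at 3 ng 24 h, against 12.26, 12.63, 12.18 and 12.57 at 3 ng 12 h, a change of -0.14. The arrest genes SFN and GADD45A changed by 0.05 and -0.11. Among apoptosis genes the late changes were -0.45 for the death receptor FAS, -0.36 for the death receptor TNFRSF10B, and -0.26, -0.23 and -0.46 for the BCL2 family members BAX, BBC3 and PMAIP1. FAS was lower on the quantile scale alone (-0.24, limma adjusted p = 0.0118). TP53I3, an oxidoreductase, had a change of 0.21 and was higher on the quantile scale alone (0.38, limma adjusted p = 0.002).

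Early rises that fade were examined first in a set of genes chosen without the 8 arrays. At 5 ng 12 h, 262 genes (1.42%) were at least 2-fold higher than at 0 ng on both scales, with an adjusted p under 0.05. This choice compares 12 h with uninduced cells at 24 h. A gene that only becomes lower with longer culture would therefore count as an early rise and a late fall. Fading of the response and culture time cannot be told apart here. Over the later 12 h at 3 ng, 33 of these 262 fell on both scales, which is 12.6% against 4.0% of all genes, and 6 rose, which is 2.29% against 0.0706%. The other 223 had no call. The set had a median late change of -0.33 as deposited and -0.04 after quantile normalization, beside -0.23 and 0.08 for all genes. The 6 that rose were CRYAB, CLCA2, TM7SF2, CCL3, LCE1F and PLTP. As deposited alone 35 of the 262 were lower, against 19 without replicate 4 of 3 ng 24 h, 20 without replicate 2 and 22 without replicate 4 of 3 ng 12 h, and 56 without replicate 3 of 3 ng 12 h. Most of the 33 calls were lost when the 2 bright arrays at 12 h were left out. Without them 3 of the 262 genes were lower on both scales, APAF1, PRR5L and BDKRB1 (-0.86, -0.78 and -0.70). Over all 18417 genes 281 were, so on both scales the share among early risers was no longer the larger. On the quantile scale alone 24 of the 262 were lower, beside 730 of all 18417 genes, and there that share was still the larger. All 33 still had values below 0, with a median of -0.55, beside -0.77 with all arrays. The fit that chose them holds the same remaining arrays, and all 736 falls stayed below 0 too, so this is no separate test.

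APAF1, the scaffold of the apoptosome that activates caspase-9, was one of those that kept the call without the bright arrays. It had 8.12, 8.04, 8.15 and 7.78 at 3 ng 24 h, against 8.91, 9.41, 8.85 and 9.31 at 3 ng 12 h and 7.70, 7.58, 7.12 and 7.80 at 0 ng. Every array at 24 h lay below every array at 12 h, and the lowest at 24 h was just below the highest uninduced array. The late change was -1.10 ± 0.16 (SE, n = 4 each; limma adjusted p = 0.000105), and -0.87 after quantile normalization. Of a rise of 1.57 at 12 h over 0 ng, 0.47 was left at 24 h (limma adjusted p = 0.0349), or 0.92 of 1.79 after quantile normalization. At 5 ng APAF1 had 9.19, 9.20, 9.19 and 9.35 at 24 h, against 9.44, 9.69, 9.67 and 9.62 at 12 h, a late change of -0.37 (limma adjusted p = 0.311). There too every array at 24 h lay below every array at 12 h, and on the quantile scale APAF1 was lower at 5 ng (-0.26, limma adjusted p = 0.018).

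SESN1, a sestrin of the antioxidant and mTORC1-inhibiting response, had 8.09, 8.23, 8.13 and 7.74 at 3 ng 24 h, against 8.42, 9.12, 8.57 and 8.86 at 3 ng 12 h and 7.17, 6.82, 6.67 and 7.50 at 0 ng. It fell by 0.69 ± 0.18 (SE, n = 4 each; limma adjusted p = 0.0294) and stayed 1.01 above 0 ng at 24 h. PANK1, a kinase of coenzyme A synthesis, fell by 0.62, and POLH, a DNA polymerase that copies past ultraviolet damage, by 0.60. Both were 0.34 above 0 ng at 24 h as deposited, after 0.96 and 0.94 at 12 h. On the quantile scale PANK1 kept 0.71 of 1.07 and POLH 0.81 of 1.21. SESN1, PANK1 and POLH each lost the call without replicate 2 or without replicate 4 of 3 ng 12 h, at -0.57 and -0.66, at -0.51 and -0.54, and at -0.51 and -0.54. They also lost it without replicate 4 of 3 ng 24 h, at -0.59, -0.57 and -0.53, and without replicate 1 of that group, at -0.71, -0.59 and -0.60. SESN1 did so too without its replicate 3, at -0.72, and POLH without its replicate 2, at -0.61.

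Other early risers that fell were PRR5L, an mTORC2 partner (-1.02), GCNT2, a glycosyltransferase (-1.21), OTULINL (-1.07), SYTL2, a synaptotagmin-like protein of vesicle transport (-0.92), RASSF6, a RAS association domain protein (-0.92), and IL36G, an epithelial cytokine (-0.91). SYTL2 lost its call without replicate 4 of 3 ng 24 h or either bright array, at -0.78 to -0.80. ZNF750 and PFKFB4, named above, were also among them. So were BDKRB1, a bradykinin receptor (-0.86), RGS16, a regulator of G protein signalling (-0.77), FBXW7, a ubiquitin ligase subunit that degrades cyclin E (-0.69), and NLRP3, the sensor of an inflammasome (-0.67). PRR5L had 4.92, 5.07, 4.60 and 4.89 at 3 ng 24 h, against 5.67, 6.31, 5.62 and 5.95 at 3 ng 12 h and 4.58, 4.58, 4.46 and 4.86 at 0 ng. As deposited its arrays at 24 h overlapped those of uninduced cells and lay below all at 12 h, with a change of -1.02 ± 0.16 (SE, n = 4 each; limma adjusted p = 0.000199). On the quantile scale PRR5L had 4.67 to 5.14 at 3 ng 24 h, above the 4.43 to 4.61 at 0 ng. Of the 33, 26 were still above 0 ng at 24 h as deposited, and 10 were called so on both scales. At 5 ng 6 of the 33 fell on both scales from 12 h to 24 h, beside 3.53% of all genes, with a median of -0.37 over the 33. Values there were below 0 for 32 of the 33 as deposited and for 29 on the quantile scale. That comparison shares the 5 ng 12 h arrays with the choice of the set.

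The same question can be put with the early rise at 3 ng itself. Its choice used the arrays at 3 ng 12 h, so the classes that follow are a description, with no test. That choice also compares 12 h with uninduced cells at 24 h, with the same limit of culture time. At 3 ng 12 h, 123 genes (0.668%) were at least 2-fold above 0 ng on both scales, and 119 of them were also early risers at 5 ng (96.7% of these and 45.4% of the 262). The median rise of the 123 over 0 ng was 1.04 at 24 h, against 1.39 at 12 h, as deposited, and 1.33 at 24 h, against 1.36 at 12 h, after quantile normalization. On both scales 8 kept less than 0.5 of their rise, 24 grew, and 91 lay between. By the deposited scale alone 26 kept less than 0.5, and by the quantile scale alone 8.

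The 8 that faded on both scales were PXT1, OR5P2, GCNT2, PSORS1C3, PRR5L, RASSF6, PFKFB4 and LIMD1-AS1. PXT1, OR5P2, GCNT2 and PSORS1C3 were dim, averaging -0.19, 2.18, 2.91 and 1.53 at 24 h, against 1.32, 3.56, 4.12 and 2.61 at 12 h, below the median gene level at both times. PFKFB4 was brighter, with 6.36, 6.73, 6.66 and 5.94 at 3 ng 24 h, against 6.92, 7.69, 7.27 and 7.43 at 3 ng 12 h and 6.38, 6.21, 6.23 and 6.38 at 0 ng, so as deposited its arrays at 24 h overlapped the uninduced level. On the quantile scale PFKFB4 had 6.23 to 6.83 at 3 ng 24 h, above the 5.98 to 6.19 at 0 ng, a difference of 0.47 (limma adjusted p = 0.00925). At 5 ng, where neither time shares an array with the 3 ng groups, all 8 had late changes below 0 on both scales, with a median of -0.60, and 1 of them, PRR5L, was called. Over all genes 65.8% were below 0 at 5 ng as deposited and 37.1% after quantile normalization. Among the 24 that grew were CRYAB, CLCA2, PLTP, TP53I3, CES2, a carboxylesterase, and the cornified envelope genes LCE1F, LCE1C and LCE1B. LCE1C had 10.52, 10.28, 10.58 and 9.95 at 3 ng 24 h, against 9.58, 9.48, 9.54 and 10.07 at 3 ng 12 h and 6.72, 5.42, 5.20 and 6.20 at 0 ng. As deposited its 2 times overlapped through replicate 4 of each. On the quantile scale LCE1C had 10.31 to 10.75 at 3 ng 24 h, above the 9.11 to 9.91 at 3 ng 12 h. That late change was 0.85 (limma adjusted p = 0.0125), and 0.70 without the 2 bright arrays (limma adjusted p = 0.101).

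**Figure D3:**
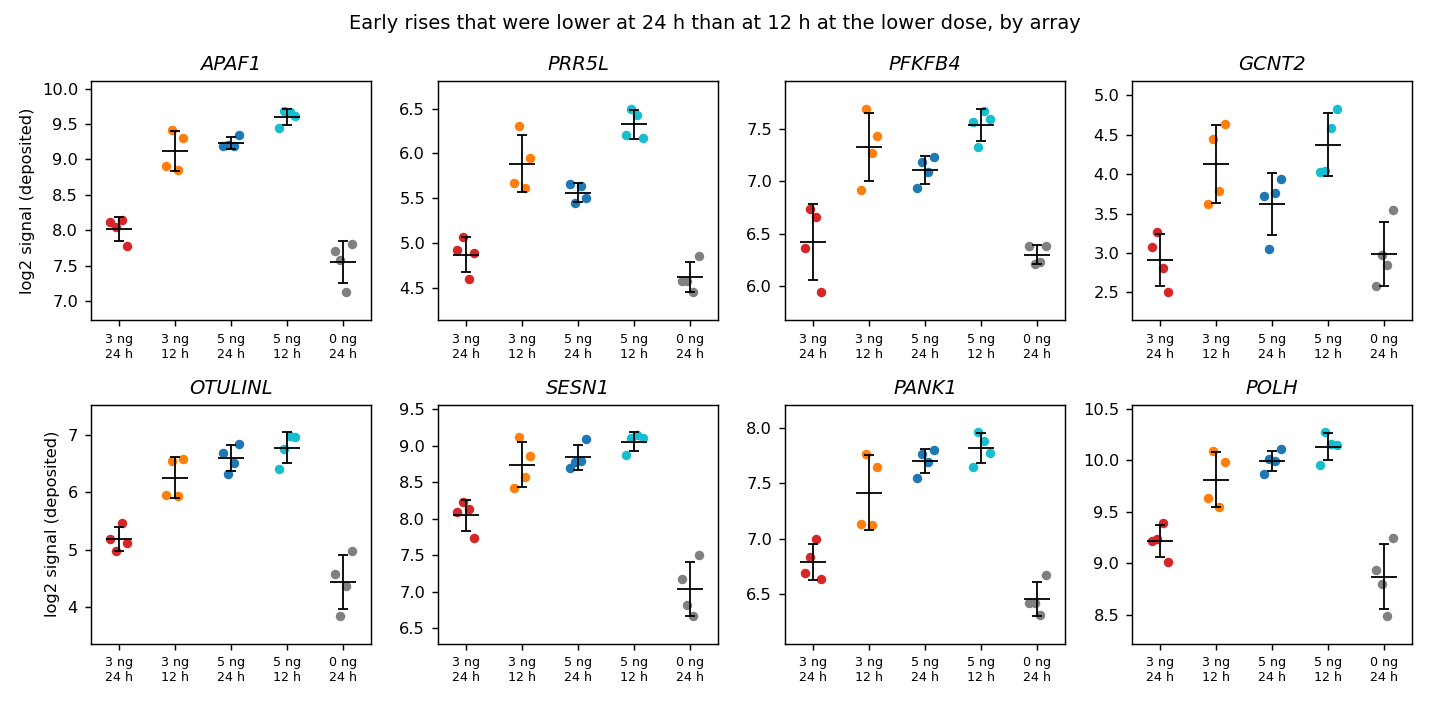
Deposited log2 signal (vertical axis) on each array of 8 early risers that were lower at 3 ng 24 h than at 3 ng 12 h, shown at 3 ng 24 h, 3 ng 12 h, 5 ng 24 h, 5 ng 12 h and 0 ng 24 h, with 1 point per array and a bar at the mean ± SD of 4 arrays. APAF1 averaged 8.02 at 3 ng 24 h, against 9.12 at 3 ng 12 h, and 9.23 at 5 ng 24 h, against 9.61 at 5 ng 12 h.

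Most genes that were lower early at 5 ng fell later at 3 ng. At 5 ng 12 h, 141 genes (0.766%) were at least 2-fold below 0 ng on both scales, and 109 of these, or 77.3%, fell on both scales from 12 h to 24 h at 3 ng, against 4.0% of all genes. None of the 141 rose in limma's test on either scale. Their median late change at 3 ng was -1.28 as deposited and -1.02 after quantile normalization. Of the 141, 66 fell without the 2 bright arrays, beside 281 of all 18417 genes.

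The late change at 3 ng was set beside that at 5 ng, since the pairs of groups share no array. At 5 ng 650 genes fell on both scales (3.53%) and 78 rose (0.424%). The falls had 527 genes in common, 71.6% of those at 3 ng and 81.1% of those at 5 ng. The rises had 12 in common, 92.3% of those at 3 ng and 15.4% of those at 5 ng, and CCDC71L was the 1 riser at 3 ng that was not called at 5 ng (0.61, limma adjusted p = 0.061). No gene was called in opposite directions. Across genes, which are not independent replicates, the late changes at the 2 doses had a Pearson correlation of 0.741 as deposited and 0.751 after quantile normalization.

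The G2 and M phase genes fell further at 5 ng, with a median of -2.98, beside -2.0 at 3 ng, and 33 of the 34 had a deeper value at 5 ng on each scale. CCNB1 averaged 9.07 at 3 ng 24 h, against 10.72 at 3 ng 12 h, and 7.53 at 5 ng 24 h, against 10.53 at 5 ng 12 h, late changes of -1.65 and -3.0. The S phase medians were -1.24 at 3 ng and -1.52 at 5 ng, and 27 of 33 genes were deeper at 5 ng as deposited. The histone medians were -1.60 at 3 ng and -1.47 at 5 ng. Of the 40 histone genes, 16 were deeper at 5 ng as deposited and 19 after quantile normalization. Over all 18417 genes the late change was lower at 5 ng than at 3 ng for 4179 as deposited. Of the 527 shared falls, 380 were deeper at 5 ng as deposited and 450 after quantile normalization.

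The difference between the 2 late changes was tested for each gene. As deposited limma called 0 genes (0.00%), with 391 at an unadjusted p under 0.05, and after quantile normalization it called 13, of which 12 fell less at 3 ng (0.0652%) and 1 fell more (0.00543%). After centring each array on its median it called 1, DEPDC1. The 12 included CCNB1, which fell by 1.38 less at 3 ng (quantile scale, limma adjusted p = 0.00304), AURKA, a mitotic kinase (1.20 less), and CCNA2, cyclin A2 (1.21 less). Of the 12, 8 belonged to the G2 and M phase list and 1, RRM2, a subunit of ribonucleotide reductase, to the S phase list. The 1 gene that fell more at 3 ng was APAF1, with a difference of -0.60 on the quantile scale (limma adjusted p = 0.0388) and -0.73 as deposited (limma adjusted p = 1).

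**Figure D4:**
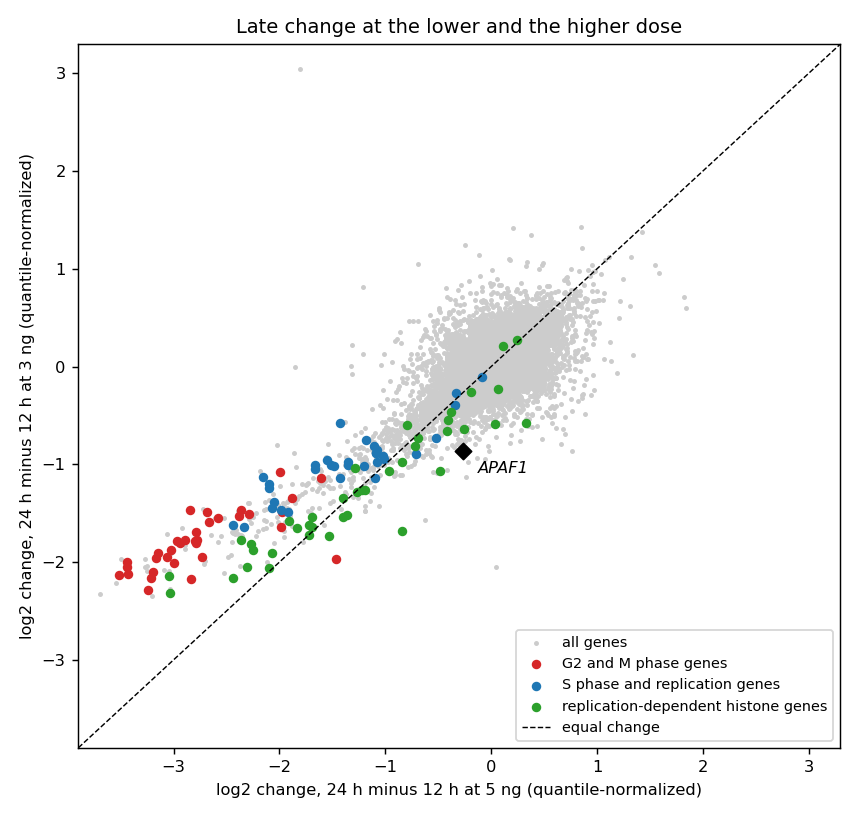
Late change (24 h minus 12 h, log2, after quantile normalization) at 3 ng (vertical axis) and at 5 ng (horizontal axis), 1 point per gene, with the 3 cell cycle lists in colour, APAF1 as a black diamond and a dashed line of equal change. G2 and M phase genes lie above the line but for 1, with medians of -1.79 at 3 ng and -2.82 at 5 ng, and APAF1 lies below it, at -0.87 at 3 ng and -0.26 at 5 ng.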

How the data were processed

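RNA of B5/589 cells was labelled with biotin for Affymetrix arrays, 1 array per sample, per the labels' protocols. The deposited values are log2 signals, 1 per transcript cluster and array. The submitters' processing notes name limma, Affymetrix Power Tools, GCRMA and GCOS, without versions or roles, and the genome build and the step that scaled the arrays are not given in the sources used here. Of 33297 clusters, 19460 had 1 gene symbol in the platform annotation, 1754 had several and 12083 were not listed. The brightest cluster was kept for each of 18417 genes, and 769 of these had more than 1.

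Groups were taken from the sample titles. In R 4.3.3, limma 3.58.1 was fitted to all 20 arrays with 1 mean per group (15 residual degrees of freedom), with p-values adjusted over all 18417 genes and a threshold of 0.05. Deposited values were used as they are, and quantile normalization over all clusters was run beside them. Early rises were genes with an adjusted p under 0.05 and at least 2-fold higher on both scales. The code was tested on simulated data.

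Depth does not apply to arrays, and their number limits the precision. The files give no detection calls, so dim genes are less certain. Correlations between the 8 arrays were 0.9862 to 0.9944, and no 2 arrays were identical. Correlations of deviations between same-numbered arrays were weak, at -0.035 to 0.089, so no block was used. The same number gave the best match for replicates 2 and 4, and not for 1 and 3, on both scales.

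The comparison, the gene lists and the panel of p53 targets were chosen with earlier results of these data known. Named genes are the 12 steepest called rises and falls with no overlap of arrays, up to 4 called members per list, the panel, and the largest changes among early risers. CCNB1, other list members, the further early risers (RASSF6, IL36G, BDKRB1, RGS16, FBXW7, NLRP3) and the genes of the dose difference were chosen after their values were seen. Alternatives were median centring, a replicate block, the 8 arrays alone, a filter on the dimmest 30% of genes, the mean of a gene's clusters, limma's trend and robust options, a 1.5-fold early rise, and each array left out.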

Additional observations from a re-analysis of the deposited data

Results flagged for a closer look

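Among 164 groups of 4 arrays tested for a single array far from the other 3 (82 named genes at both times), 11 were found, and chance alone gives about 1 in 20. At 3 ng 24 h replicate 4 was the low array for TM7SF2 (8.81), MMP3 (5.33), CDKN1A (9.10), SFN (11.30) and FAS (8.76), and replicate 1 was the high array for TNC (6.95). At 3 ng 12 h replicate 4 was the high array for LCE1F (8.09) and LCE1C (10.07), and replicate 2 for H3C7 (8.63), MMP3 (7.91) and PXT1 (2.40). Replicates 2 and 4 of 3 ng 12 h are the 2 bright arrays.

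On the quantile scale the late change differed between the doses for 13 genes by limma's test of the difference, and for 0 as deposited. The late change at 3 ng minus that at 5 ng was -0.60 for APAF1, 0.81 for CKS2, 0.86 for RRM2, 1.03 for ANLN, 1.07 for PRC1, 1.09 for TOP2A, 1.10 for TPX2, 1.13 for HMMR, 1.20 for AURKA, 1.21 for CCNA2, 1.27 for SHCBP1, 1.38 for CCNB1 and 1.53 for DEPDC1. Except for APAF1, these genes act in DNA replication or mitosis or are known from dividing cells, and each fell at both doses.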

How the results depend on the processing

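The count of late rises was the least stable result, and it depended mostly on scaling. As deposited 13 genes were higher at 24 h, against 1827 after quantile normalization, 652 after median centring, 5 with the 8 arrays alone, 23 without the dimmest 30% of genes, 25 with trend and robust options, and 5 to 15 with 1 array left out. As deposited 803 genes were lower, and 469 to 1387 with 1 array left out. Without the 2 bright arrays of 3 ng 12 h, chosen after seeing the data, 32 genes were higher and 281 lower, and 908 higher and 730 lower after quantile normalization. On both scales the 13 rises and 736 falls became 5 rises with the 8 arrays alone, 5 to 15 rises and 461 to 962 falls with 1 array left out, and 32 rises and 281 falls without the bright arrays. Of the early rises at 5 ng, 35 were later lower at 3 ng as deposited, against 61 when a 1.5-fold early rise was enough, 19 to 56 with 1 array left out, and 3 without the bright arrays. The 6 that were later higher became 38 after quantile normalization, 22 after median centring, 22 after quantile normalization without the bright arrays, and 3 to 7 with 1 array left out. The dose difference was called for 0 genes as deposited, 13 after quantile normalization and 1 after median centring. With the replicate block the higher count was 20 as deposited and 20 on both scales, and the lower count 922 and 858. The cause of these differences was not tested, beyond the smaller number of arrays or genes that some alternatives use. Of 66 named genes called as deposited, 42 kept the call without each of the 8 arrays in turn, and no named gene changed direction while called under any alternative run.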
